A study of Mus musculus with 13 samples.

Results

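Axin2, Nkd1, Nkd2, Notum, Lef1, Tcf7, Sp5, Rnf43, Znrf3 and Lgr5 are Wnt feedback genes: beta-catenin switches them on in many tissues, and their products act back on the Wnt pathway. They were chosen by symbol as a gene set and not by their values, though with earlier results of these data known. All 10 were found among the 30332 genes of the RNA-seq table. The cells came from a study that used a mixture of chemicals, one of them the GSK3 inhibitor CHIR99021, to turn mouse fibroblasts into neural stem cells.

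RNA was sequenced from 9 populations of cells from Nestin::GFP transgenic mice, which carry a green fluorescent reporter for Nestin. VCR D1 and VCR D2 were mouse embryonic fibroblasts, isolated from E13.5 embryos and used at passage 3, after 1 and 2 days with VCR. VCR stands for valproic acid, a histone deacetylase inhibitor, CHIR99021, and RepSox, which blocks TGF-beta receptor signalling. GFP-positive and GFP-negative D4 and D8 were the sorted fractions after 4 and 8 days of VCR. GF was a sorted GFP-positive population from fibroblasts that received 50 ng/ml of IL6 over 2 days. A combination of FGF5 (50 ng/ml) and LIF (100 ng/ml) followed over 4 days, and EGF and bFGF came last, 20 ng/ml of each; the labels name no CHIR99021 for it. NSC was a sorted GFP-positive population of primary neural stem cells at passage 3. D0 was the untreated, unsorted fibroblast culture, a mixture of embryonic cells. The labels give no dose of the chemicals, and the series has no culture with CHIR99021 alone and no untreated culture at later days, so CHIR99021, the other chemicals and time in culture cannot be told apart.

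Each group was 1 library, so no difference below has a replicate check, and each compares libraries. The smallest library, NSC, held 20104940 estimated counts and the largest, D0, 36751356. Levels are in CPM, counts scaled to the library total, and levels of different genes are not compared because CPM takes no account of transcript length. Values in parentheses after a ratio are its 95% interval, which covers counting error only. That is a low bar: between 61.7% and 94.6% of genes with 1 CPM had such an interval away from 1 in the 15 comparisons made. A gene was therefore called only where log2(CPM + 1) differed by 1 or more, a 2-fold change, and 1 of the libraries had at least 5 CPM; "rose" and "fell" are kept for calls against D0. In bulk RNA, fewer cells of a type and less RNA per cell cannot be told apart.

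Marker genes followed most labels. The 6 fibroblast markers summed to 191 CPM in NSC, with Dcn and Lum at 0, against 10194 CPM in D0. Pdgfra went the other way, at 168 CPM in NSC against 79.2 CPM in D0. GF stood apart from its GFP-positive label: its fibroblast markers summed to 12056 CPM and its neural stem cell markers to 78.8 CPM, against 918 CPM in NSC, and Sox1 and Pax6 were at 1.17 and 1.18 CPM in GF. The GFP-positive VCR libraries had neural stem cell markers at 882 and 859 CPM, but Sox1 at only 0.374 and 0.208 CPM at D4 and D8.

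When no Wnt signal arrives, a destruction complex built on APC and AXIN lets GSK3 mark beta-catenin for breakdown. Blocking GSK3 spares beta-catenin, which then works through the TCF/LEF factors on DNA. Several of the genes it switches on are brakes. Axin2 rebuilds the destruction complex, Nkd1 and Nkd2 bind Dishevelled, Notum strips Wnt proteins of a lipid they need, and Rnf43 and Znrf3 remove Frizzled receptors from the cell surface. Lgr5 is a receptor for R-spondins, which hold Rnf43 and Znrf3 back. Lef1 and Tcf7 are DNA-binding partners of beta-catenin, and Sp5 is a zinc finger factor that dampens other Wnt targets.

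The start regions of Sp5 and Axin2 are shown because both genes were lowest in D0 and highest, by CPM, in GF. Notum shared this pattern, but no start region was available for it. The regions shown are RefSeq sequences of build GRCm38.p6, from 250 bases before to 50 after a transcription start, read along the gene. Capitals mark the TCF/LEF core CTTTGA and its longer form CTTTGAT, which contains it; both strands were searched.
Sp5 (chr2:70474673-70474972, + strand): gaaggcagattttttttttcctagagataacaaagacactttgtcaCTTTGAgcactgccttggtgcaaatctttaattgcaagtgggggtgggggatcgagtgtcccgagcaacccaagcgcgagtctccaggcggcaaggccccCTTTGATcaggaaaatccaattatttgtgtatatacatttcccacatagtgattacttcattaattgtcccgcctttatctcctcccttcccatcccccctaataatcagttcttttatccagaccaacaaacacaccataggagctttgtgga
Axin2 (chr11:108920099-108920398, + strand): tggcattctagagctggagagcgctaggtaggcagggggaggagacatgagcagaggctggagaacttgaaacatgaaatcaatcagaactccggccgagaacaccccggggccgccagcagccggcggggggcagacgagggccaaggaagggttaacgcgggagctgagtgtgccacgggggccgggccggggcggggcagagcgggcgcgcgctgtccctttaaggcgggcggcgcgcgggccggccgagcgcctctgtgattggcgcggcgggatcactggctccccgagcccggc
The Sp5 window held the core at positions -204 and -104 from the start, the match at -104 being the longer form. The Axin2 window held neither. It lies inside the span of the gene, which begins at 108917828, so the sequence before the first base of that span was not searched. The table gave 12 windows for 7 of the 10 genes and none for Notum, Znrf3 and Lgr5. The core was in the windows of 2 genes, Sp5 and Lef1. In Lef1 it was in 1 of 4 windows, at -180 and -120 on the opposite strand. Of the 27025 genes with windows, 18.2% had the core and 4.29% the longer form. A match is a run of letters and not a measured binding site.

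The 10 genes are protein-coding. Of their GRCm38.p6 spans, Axin2 (chromosome 11, 108917828 to 108950783), Notum (chromosome 11, 120653788 to 120661193), Tcf7 (chromosome 11, 52246527 to 52283383), Rnf43 (chromosome 11, 87663087 to 87735539) and Znrf3 (chromosome 11, 5276329 to 5444847) share a chromosome. The others are Sp5 (chromosome 2, 70474923 to 70477726), Lef1 (chromosome 3, 131110297 to 131224357), Nkd1 (chromosome 8, 88521342 to 88594887), Lgr5 (chromosome 10, 115450314 to 115587780) and Nkd2 (chromosome 13, 73818534 to 73847631). Tcf7 shares 332 bases at its end with Skp1, which had between 2998 and 25517 counts, and whether reads were split between them was not tested.

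Axin2, widely used as a readout of beta-catenin, was lowest in D0, with 12 counts. It was at 0.327, 2.23 and 2.43 CPM on D0, D1 and D2. In the sorted fractions it was at 1.64 CPM in GFP-positive and 1.499 CPM in GFP-negative cells at D4, and at 3.12 CPM in GFP-positive and 8.59 CPM in GFP-negative cells at D8. GF had 9.57 CPM and NSC 6.12 CPM. All 8 other libraries lay above D0. The highest, GF, was not apart from GFP-negative D8 beyond counting error, with a ratio of 1.11 (0.914 to 1.36).

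Notum, the secreted enzyme that inactivates Wnt proteins, had 4 counts in D0. Its level was 0.109, 1.28 and 0.335 CPM on D0, D1 and D2. At D4 the GFP-positive cells had 0.575 CPM and the GFP-negative cells 0.146 CPM, and at D8 they had 4.95 and 5.53 CPM. GF was at 61.4 CPM and NSC at 29.9 CPM. Both exceeded every VCR library, and GF was above NSC at a ratio of 2.05 (1.86 to 2.26).

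Sp5 was hardly detected in unsorted cells, with 0, 1 and 2 counts on D0, D1 and D2. The GFP-positive libraries had 13 counts each, 0.374 CPM at D4 and 0.450 CPM at D8, and the GFP-negative libraries 0.0731 and 1.19 CPM. GF had 11.6 CPM and NSC 4.33 CPM, so that Sp5 reached 5 CPM in 1 library. GF and NSC were the highest libraries of both Sp5 and Notum.

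The paired Naked cuticle genes went separate ways. Nkd2 was at 29.1, 101 and 117 CPM on D0, D1 and D2. It reached 599 CPM in GFP-positive against 108 CPM in GFP-negative cells at D4, and 563 CPM against 324 CPM at D8. GF had 47.8 CPM, and NSC was the lowest library at 15.9 CPM. Every VCR library thus exceeded the 3 others in Nkd2.

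Nkd1 was at 12.1, 16.3 and 17.7 CPM on D0, D1 and D2. The GFP-positive libraries had its lowest levels, 9.96 CPM at D4 and 7.56 CPM at D8, against 16.9 and 40.8 CPM in GFP-negative cells. GF had 23.2 CPM and NSC 55.2 CPM. NSC was highest by CPM and with median ratio scaling, and GFP-negative D8 with TMM and quantile scaling.

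Tcf7, which encodes TCF1, was lowest in D0. It was at 1.28, 6.48 and 7.30 CPM on D0, D1 and D2. GFP-positive cells had 39.6 and 32.4 CPM, against 11.8 and 14.0 CPM in GFP-negative cells, at D4 and D8. GF had 6.68 CPM and NSC 2.79 CPM. The 4 sorted VCR libraries were its highest, with the GFP-positive ones on top. Nkd2 also had the GFP-positive libraries on top, but its level in D2 lay above that in GFP-negative D4.

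Lef1, the other DNA-binding partner among the 10, ranged from 2.16 to 7.76 CPM. It was at 4.96, 3.83 and 2.74 CPM on D0, D1 and D2. It stood at 5.98 CPM in GFP-positive against 2.16 CPM in GFP-negative cells at D4, and at 3.91 against 3.08 CPM at D8. GF had 7.76 CPM and NSC 4.67 CPM. Below GF, no library was apart from the next lower beyond counting error. More distant ones were, with a ratio of 2.77 (2.07 to 3.76) for GFP-positive D4 over GFP-negative D4.

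Rnf43 and Znrf3 are related ubiquitin ligases. Rnf43 was at 11.04 CPM in NSC. Among the others, GFP-negative D8 was highest with 1.02 CPM and D0 lowest with 3 counts, and no neighbours in that order were apart beyond counting error. More distant libraries were: Rnf43 was 12.5-fold (3.80 to 64.9) higher in GFP-negative D8 than in D0, on 24 against 3 counts. GFP-negative D4 and D1 were also above D0 beyond counting error, and D2, both GFP-positive libraries and GF were not. Znrf3 was within counting error between D0 and D1 and between D0 and D2, with 4.56, 4.89 and 4.17 CPM on D0, D1 and D2. GFP-positive cells had 5.77 and 5.90 CPM of Znrf3, against 8.93 and 10.8 CPM in GFP-negative cells, and GF and NSC had 6.46 and 6.71 CPM. The GFP-negative libraries were its highest.

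Lgr5, a stem cell marker of several epithelia, was highest in D0 with 6080 counts. It was at 165, 30.2 and 64.4 CPM on D0, D1 and D2. GFP-positive cells had 22.3 and 17.8 CPM, against 60.8 and 90.2 CPM in GFP-negative cells, at D4 and D8. GF had 5.64 CPM and NSC 4.85 CPM, a ratio of 1.16 (0.890 to 1.54). D0 stayed the highest library with median ratio, TMM and quantile scaling.

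**Figure D1:**
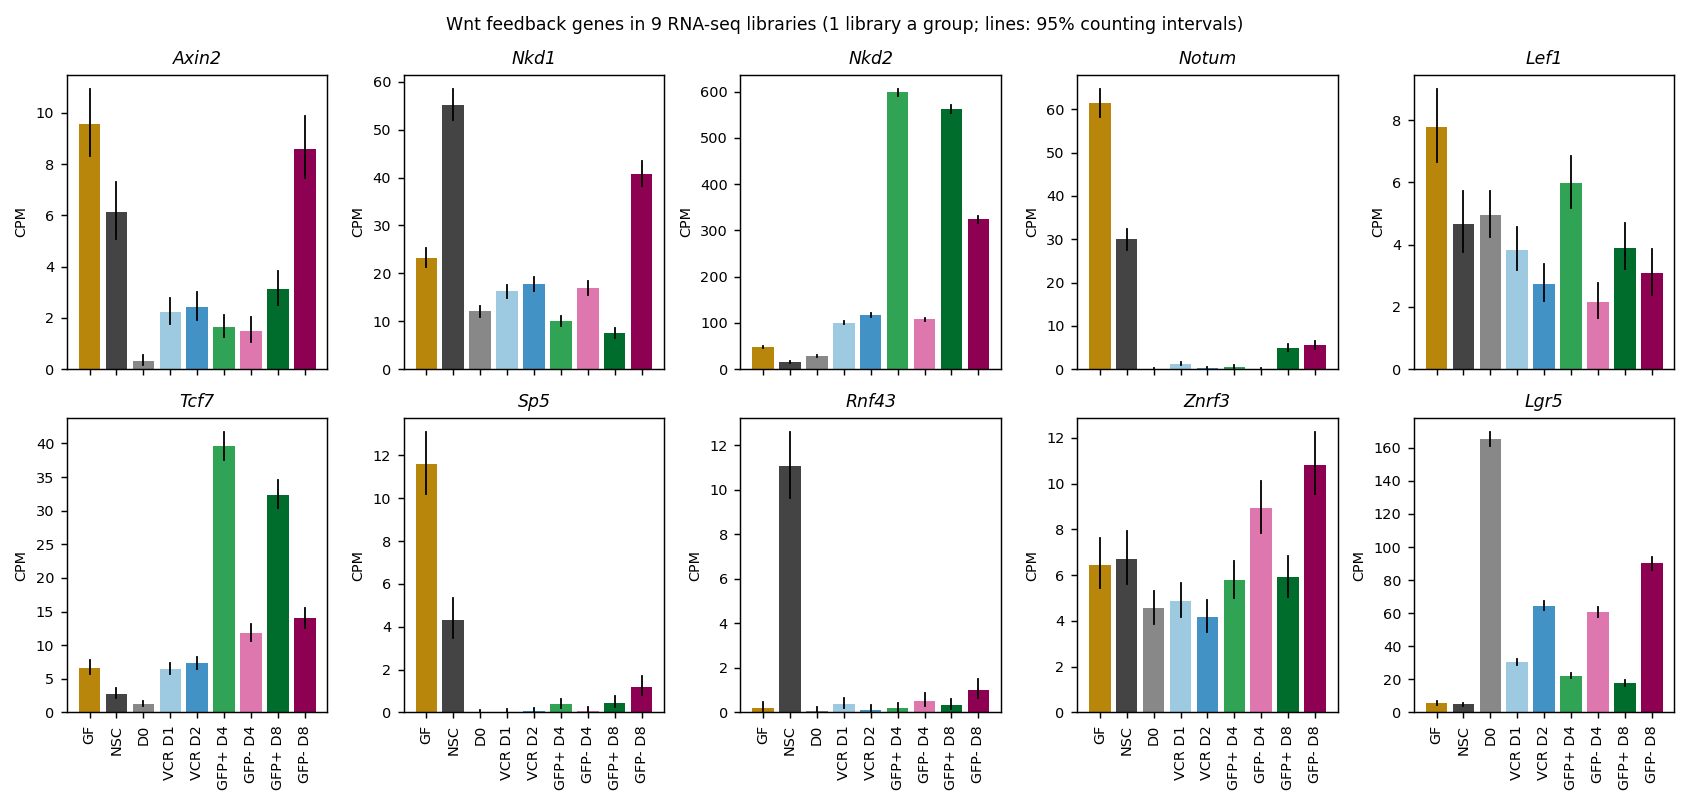
Level of each of the 10 genes in the 9 RNA-seq libraries, in CPM on linear axes from 0 with a scale per panel; each bar is 1 library and the line on it its 95% counting interval. Axin2, Notum and Sp5 peak in GF (9.57, 61.4 and 11.6 CPM), Nkd2 and Tcf7 in GFP-positive D4 (599 and 39.6 CPM) and Lgr5 in D0 (165 CPM).

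All 10 genes reached 5 CPM in some library, but 3 did so in D0 (Nkd1, Nkd2 and Lgr5), against 4 in each of D1 and D2, 9 in GF and 6 in NSC. A gene under 5 CPM in 1 of the libraries compared entered the comparison only through the library in which it was higher. Counts of called genes are therefore given as a description and support no direction.

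After the first day of VCR, Nkd2 and Tcf7 rose and Lgr5 fell. Nkd2 was 3.45-fold (3.22 to 3.70) and Tcf7 5.06-fold (3.68 to 7.10) higher in D1 than in D0, and Lgr5 5.47-fold (5.12 to 5.86) lower. Nkd1, also measured, was at a ratio of 1.35 (1.18 to 1.53). These were 3 calls among 4 measured genes, where 12.5% of all genes tested were called. With a floor of 1 CPM, Axin2 at 6.82-fold (3.69 to 13.8) and Notum at 11.7-fold (4.27 to 45.03) above D0 were also called higher, against 12.6% of all genes. The fibroblast markers summed to 4200.1 CPM in D1 against 10194 CPM in D0, but the lower sum lay in 2 collagen genes of the 6: Col1a1 was at 1706 against 5658 CPM and Col1a2 at 1145 against 3597 CPM. The other 4 were not lower, with Dcn at 832 CPM in D1 against 613 CPM in D0 and Lum at 263 against 97.5 CPM. The part of these genes in the Lgr5 difference was not tested.

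D2 gave the same 3 calls of 4 measured genes against D0, with 12.8% of all genes called. Nkd2 was 4.01-fold (3.75 to 4.30) and Tcf7 5.71-fold (4.16 to 7.98) higher, and Lgr5 2.57-fold (2.44 to 2.70) lower. Axin2, at 7.45-fold (4.04 to 15.0) above D0, was called with the floor of 1 CPM, against 12.9% of all genes. The Tcf7 calls of D1 and D2 were lost with a pseudocount of 5 CPM, at log2 differences of 0.87 and 0.97.

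Between the first days, Lgr5 was the gene called, 2.13-fold (1.98 to 2.30) higher in D2 than in D1. It was 1 of 4 measured genes, with 4% of all genes called, and the call was lost with a pseudocount of 5 CPM (0.98) and with quantile scaling (0.92). The ratio of D2 over D1 was within counting error of 1 for Axin2, at 1.09 (0.787 to 1.52), and for Tcf7, at 1.13 (0.934 to 1.36).

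In the GFP-positive fractions Nkd2 and Tcf7 rose and Lgr5 fell. Nkd2 was 20.6-fold (19.3 to 21.9) higher than D0 at D4 and 19.3-fold (18.2 to 20.6) at D8. Tcf7 was 30.96-fold (23.2 to 42.3) and 25.3-fold (18.9 to 34.7) higher. Lgr5 was 7.43-fold (6.90 to 8.03) and 9.31-fold (8.51 to 10.2) lower. These 3 calls were among 6 measured genes at D4 and 5 at D8, and 49.8% and 49.1% of all genes were called, so that a call is common in these comparisons.

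Axin2 stayed under 5 CPM in the GFP-positive libraries, at 5.02-fold (2.66 to 10.3) above D0 at D4 and 9.55-fold (5.21 to 19.2) at D8. Notum, at 45.5-fold (17.4 to 169) above D0, ended just outside the floor at D8. With a floor of 1 CPM both were called at D8, against 46.3% of all genes. Sp5 was at least 4.58-fold higher at D4 and at least 5.52-fold at D8, since D0 had 0 counts and was set at a floor of 3 counts in that library.

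In GFP-negative D4 the same 3 genes were called, of 5 measured, with 16.2% of all genes called. Nkd2 rose 3.69-fold (3.44 to 3.96), Tcf7 rose 9.24-fold (6.79 to 12.8) and Lgr5 fell 2.72-fold (2.57 to 2.87). Lef1, at 2.16 CPM in GFP-negative D4 and 4.96 CPM in D0, was under both the floor and the mark of 1, at a difference of -0.92, and was called lower with median ratio (-1.18), TMM (-1.17) and quantile scaling (-1.16).

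GFP-negative D8 had the most calls of the VCR libraries against D0. Of 7 measured genes 6 rose and none fell, where 16.4% of all genes were called higher and 22.5% in either direction. Axin2, Notum, Tcf7 and Znrf3 were measured here only through GFP-negative D8, so they could not be called lower. Axin2 rose 26.3-fold (14.7 to 51.8), Notum 50.8-fold (19.4 to 189), Nkd2 11.1-fold (10.4 to 11.9), Tcf7 10.9-fold (8.04 to 15.2), Nkd1 3.38-fold (3.02 to 3.79) and Znrf3 2.38-fold (1.96 to 2.92). Lgr5 was 1.83-fold (1.75 to 1.93) lower, under the mark. Sp5 was at least 14.6-fold higher than D0, and was called with the floor of 1 CPM, against 22.2% of all genes.

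Scaling bears on this comparison. Of all calls 72.8% were higher by CPM and 50.4% with median ratio scaling, where the median gene differed by 0.03 in place of 0.31. Znrf3 was then no longer called (0.86) and Lgr5 was called lower (-1.15); TMM gave 0.78 and -1.23. The calls of Axin2, Notum, Nkd1, Nkd2 and Tcf7 held in all 8 other settings.

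The step from D4 to D8 within the GFP-negative fraction gave 4 calls of 7 measured genes, all higher at D8, where 3.68% of all genes were called higher and 5.15% in either direction. Notum was 37.8-fold (14.4 to 141), Axin2 5.73-fold (4.08 to 8.23), Nkd2 3.01-fold (2.89 to 3.14) and Nkd1 2.41-fold (2.16 to 2.71) higher in D8. Sp5, with 28 counts in D8 and 2 in D4, was called with the floor of 1 CPM, against 5.12% of all genes. Axin2 and Notum were measured here only through D8.

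Within the GFP-positive fraction the same step gave 0 calls of 6 measured genes, with 2.77% of all genes called. Notum was 8.62-fold (5.38 to 14.5) higher in D8 and was called with the floor of 1 CPM, against 3.15% of all genes. Axin2 was 1.90-fold (1.35 to 2.70) higher. Whether the step differs between the fractions was not tested.

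**Figure D2:**
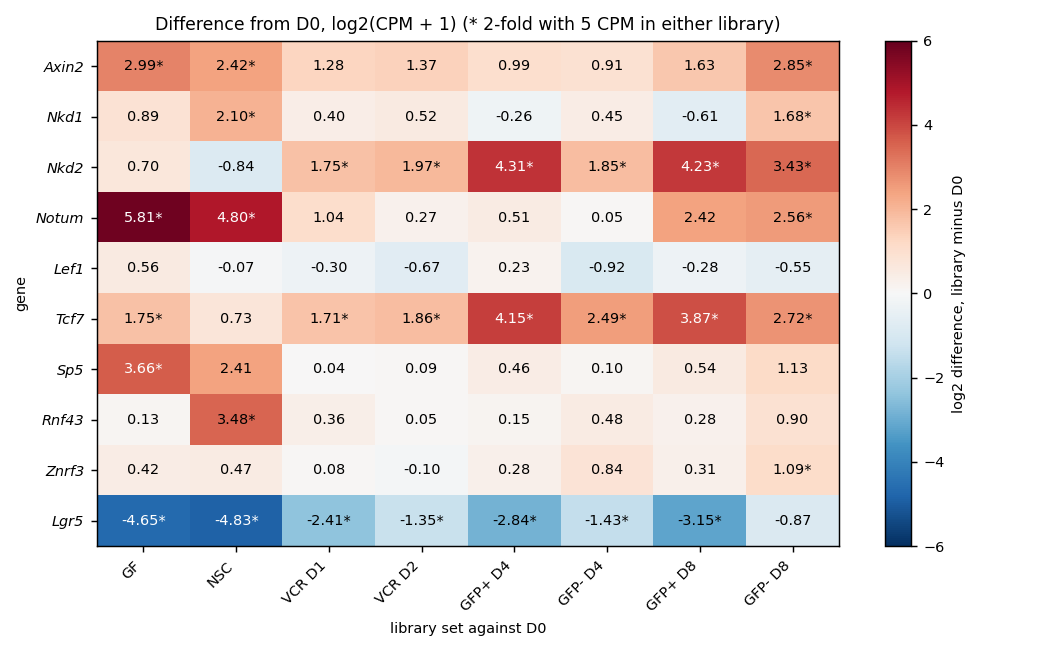
Difference of each gene from D0 on the log2(CPM + 1) scale, genes down the page and the 8 other libraries across, red above and blue below D0; a star marks a difference of 1 or more with 5 CPM in either library. Nkd2 and Tcf7 are starred in all 6 VCR libraries, Lgr5 is below D0 in all 8, and GFP-negative D8 has 6 stars.

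The fractions were also compared with each other, which sets cells that turned the Nestin reporter on against those that did not. At D4 GFP-positive cells had 5.57-fold (5.36 to 5.79) more Nkd2, 3.35-fold (2.97 to 3.80) more Tcf7 and 2.77-fold (2.07 to 3.76) more Lef1 than GFP-negative cells, and 2.73-fold (2.51 to 2.98) less Lgr5. These were 4 calls of 6 measured genes, with 36.9% of all genes called. The Lef1 call was lost with a pseudocount of 5 CPM (0.62) and with median ratio (0.91), TMM (0.91) and quantile scaling (0.74). Axin2 had a ratio of 1.09 (0.718 to 1.67), within counting error of 1.

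At D8 GFP-positive cells had 5.40-fold (4.66 to 6.29) less Nkd1, 5.08-fold (4.61 to 5.60) less Lgr5 and 2.76-fold (2.14 to 3.57) less Axin2 than GFP-negative cells, and 2.31-fold (2.04 to 2.63) more Tcf7. That made 4 calls of 7 measured genes, with 32.5% of all genes called. Nkd2 was 1.74-fold (1.69 to 1.79) higher, under the mark, and Notum had a ratio of 0.896 (0.701 to 1.14). The Tcf7 call was lost with a pseudocount of 5 CPM (0.98) and with median ratio (0.96), TMM (0.99) and quantile scaling (0.84), and the Axin2 call with the pseudocount (-0.74). Lgr5 was the gene called in the same direction at both days in every setting.

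Other markers moved with the fractions. The 5 neural crest and Schwann cell markers, among them Sox10, summed to 2275 and 2601 CPM in GFP-positive against 36.5 and 49.3 CPM in GFP-negative cells at D4 and D8, with none of the 5 at 0. The 6 fibroblast markers, none at 0, summed to 912 and 840.0 CPM against 5156 and 6704 CPM. The 3 cell cycle markers, none at 0, summed to 295 and 309.7 CPM against 35.1 and 44.3 CPM. The 5 macrophage markers, none at 0, summed to 243 and 137 CPM against 25.7 and 18.6 CPM, and Lyz2 and Cd68 made up most of these sums. Csf1r, a macrophage receptor, was at 2.91 CPM in GFP-positive and 2.92 CPM in GFP-negative cells at D8. At D4 it was at 2.99 against 0.675 CPM. Adgre1 was at 4.11 and 2.42 CPM in GFP-positive against 0.110 and 0.213 CPM in GFP-negative cells at D4 and D8. Ptprc was at 2.94 and 3.09 CPM against 0.658 and 0.919 CPM. The part of all these markers in the differences between the fractions was not tested.

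**Figure D3:**
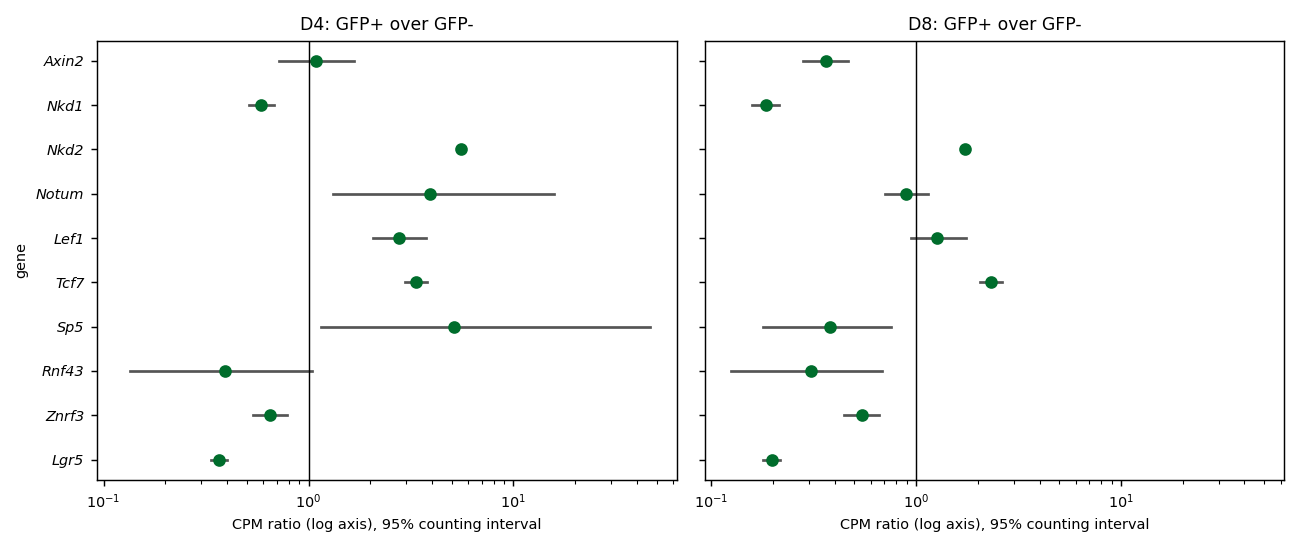
Ratio of CPM in GFP-positive over GFP-negative cells for each gene at D4 and D8, on a log axis, with 95% counting intervals and a line at a ratio of 1. Nkd2 lies at 5.57 and 1.74 and Lgr5 at 0.366 and 0.197, while Axin2 lies at 1.09 at D4 and 0.363 at D8.

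In GF, for which no CHIR99021 is named, Axin2, Notum, Sp5 and Tcf7 rose and Lgr5 fell. Notum was 564-fold (219.9 to 2074) higher than D0, on 1361 against 4 counts. Axin2 was 29.3-fold (16.4 to 57.6) and Tcf7 5.22-fold (3.74 to 7.41) higher, and Lgr5 29.3-fold (24.6 to 35.3) lower. Sp5, with 257 against 0 counts, was at least 142-fold higher. These were 5 calls of 9 measured genes, with 48.1% of all genes called, and that of Tcf7 was lost with a pseudocount of 5 CPM (0.90).

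Set against GFP-positive D8, GF had 25.8-fold (14.8 to 49.0) more Sp5, 12.4-fold (10.4 to 14.8) more Notum, 3.07-fold (2.39 to 3.97) more Axin2 and 3.07-fold (2.62 to 3.62) more Nkd1. It had 11.8-fold (11.1 to 12.6) less Nkd2, 4.85-fold (4.07 to 5.81) less Tcf7 and 3.15-fold (2.59 to 3.86) less Lgr5. In all, 7 of 9 measured genes and 49.7% of all genes were called. The Axin2 call was lost with a pseudocount of 5 CPM (0.84), and Lef1 was called higher with median ratio (1.16) and TMM scaling (1.07). The 6 fibroblast markers summed to 12056 CPM in GF against 840.0 CPM in GFP-positive D8, and the 5 neural crest and Schwann cell markers to 13.04 CPM against 2601 CPM; their part was not tested.

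In NSC, Notum was 275-fold (107 to 1013), Rnf43 135-fold (45.7 to 661), Axin2 18.7-fold (10.3 to 37.3) and Nkd1 4.57-fold (4.09 to 5.11) higher than in D0, and Lgr5 34.1-fold (28.1 to 42.4) lower. These were 5 calls of 7 measured genes, in a comparison where 67.3% of all genes were called. Sp5 was at least 53.0-fold higher, and was called with the floor of 1 CPM, against 68.8% of all genes. TMM and quantile scaling left Axin2 under 5 CPM and uncalled. Nkd2 was called lower with median ratio (-1.35), TMM (-1.82) and quantile scaling (-1.93), and was 1.83-fold (1.62 to 2.09) lower by CPM. Other markers moved with NSC: the 4 neuron markers summed to 1744 CPM in NSC against 73.7 CPM in D0, the 5 macrophage markers to 331 against 86.7 CPM, of which Csf1r was 245 against 2.64 CPM, and the 3 cell cycle markers to 1135 against 144 CPM. The macrophage marker Lyz2 went the other way, at 45.8 against 74.4 CPM. The part of all these markers was not tested.

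GFP-positive D8 cells had 35.5-fold (31.8 to 39.8) more Nkd2, 11.6-fold (8.88 to 15.5) more Tcf7 and 3.67-fold (2.96 to 4.62) more Lgr5 than NSC, and 35.4-fold (18.3 to 78.5) less Rnf43, 7.31-fold (6.32 to 8.49) less Nkd1 and 6.05-fold (5.03 to 7.31) less Notum. In this comparison 6 of 8 measured genes and 51.6% of all genes were called. With the floor of 1 CPM Sp5 was called lower as well, against 55.6% of all genes. Neural crest and Schwann cell markers summed to 2601 CPM in GFP-positive D8 against 273 CPM in NSC, where Dhh was at 0, and fibroblast markers to 840.0 against 191 CPM. Neuron markers summed to 318 CPM in GFP-positive D8 against 1744 CPM in NSC, macrophage markers to 137 against 331 CPM and cell cycle markers to 309.7 against 1135 CPM. Their part was not tested.

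D0 is shared by 8 comparisons, which are not independent of each other. The median gene lay above D0 by 0.66 and 0.57 in GFP-positive D4 and D8, by 0.30 and 0.31 in GFP-negative D4 and D8, by 0.30 in GF and by 1.00 in NSC on the log2 scale, all by CPM. With median ratio scaling these medians were 0.06, 0.08, -0.02, 0.03, 0.21 and 0.42 in the same order. The direction also turned in NSC (-0.16) and GFP-negative D8 (-0.05) with TMM scaling and in GF with quantile scaling (-0.13).

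The core of the pathway was not called in unsorted cells: 0 of 11 measured core and destruction complex genes were called at D1 and 0 of 11 at D2, against 12.5% and 12.8% of all genes. In GFP-positive cells 6 of 12 rose and none fell at both days, a share close to the 49.8% and 49.1% of all genes called, with medians of 0.87 and 1.07 beside 0.66 and 0.57 for all genes. With median ratio scaling 5 of 12 rose on both days, and with quantile scaling 3 rose and 1 (Amer1) fell at D4. Apc, a scaffold of the destruction complex, was at 242 and 273 CPM in them against 37.0 CPM in D0. Apc was also 4.93-fold (4.65 to 5.23) and 4.92-fold (4.64 to 5.22) higher in GFP-positive than in GFP-negative cells at D4 and D8. In GFP-negative cells 0 of 12 and 0 of 11 measured genes were called against D0, beside 16.2% and 22.5% of all genes. In GF 6 of 12 rose, led by Apc2, and in NSC 10 of 12, or 4 of 12 with TMM scaling, where 48.1% and 67.3% of all genes were called in GF and NSC.

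Rspo3, an R-spondin and so a ligand of LGR receptors, fell in all 6 VCR libraries and in NSC, where it was at 0.448 CPM. In NSC and both GFP-positive libraries Rspo3 was measured only through D0, where it was higher. At D1 3 of 6 measured genes of this list, which also holds the Wnt coreceptors, fell and none rose, where 12.5% of all genes were called in either direction. Of the 6, Rspo1 and Lrp5 were measured only through D0, where they were higher. Rspo3 was at 13.52 CPM in D1 against 49.3 CPM in D0, Lgr4 at 10.3 against 32.7 CPM and Rspo1 at 2.29 against 7.65 CPM. Between the fractions, Rspo3 was at 1.35 and 2.67 CPM in GFP-positive against 14.4 and 19.7 CPM in GFP-negative cells, and Rspo2 at 1.67 and 5.09 CPM against 10.6 and 37.4 CPM. Both were called lower in GFP-positive cells at both days, also with median ratio, TMM and quantile scaling. Rspo3 at both days and Rspo2 at D4 were measured only through the GFP-negative library. At D4 Lgr4 was called higher in GFP-positive cells, at 29.6 against 12.7 CPM. So was Rspo1, at 8.54 against 3.45 CPM, measured only through the GFP-positive library. Of 6 measured genes of the list, 2 were called higher and 2 lower at D4, beside 36.9% of all genes. At D8 0 were called higher and 2 lower, beside 32.5% of all genes. GFP-negative D8 was the VCR library in which Rspo2 rose, 3.92-fold (3.46 to 4.45) above D0. In GF 4 of 7 rose and 1 fell (3 and 2 with quantile scaling), beside 48.1% of all genes called, and Lrp5, a Wnt coreceptor, was at 222 CPM against 6.63 CPM in D0. In NSC 2 of 7 rose and 4 fell by CPM, beside 67.3% of all genes called. The 4 that fell there were Rspo3, Rspo2, Lgr4 and Rspo1, each measured only through D0.

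Partners of TCF moved in both directions. In GFP-positive cells 5 of 10 rose and 1 fell at both days, beside 49.8% and 49.1% of all genes called, with medians of 0.81 and 0.57 beside 0.66 and 0.57 for all genes. With median ratio scaling 4 rose and 2 fell at D4, and 3 rose and 1 fell at D8. The one that fell by CPM was Tcf7l1, which encodes the frequent repressor TCF3, at 18.0 and 10.7 CPM against 43.0 CPM in D0. Tle3 and Tle2, Groucho-type corepressors, rose: Tle3 was at 73.0 and 73.4 CPM against 10.8 CPM, and Tle2 at 35.8 and 43.6 CPM against 7.43 CPM. By CPM these genes went the same way in NSC, with Tcf7l1 at 8.01, Tle3 at 93.0 and Tle2 at 65.2 CPM. There 7 of 10 rose and 1 fell, beside 67.3% of all genes called. Tle3 and Tle2 also rose in GF, to 55.0 and 17.4 CPM, and Tle2 in both GFP-negative libraries. In GF 7 of 10 rose (5 with TMM scaling, and 5 beside 1 that fell with quantile scaling), beside 48.1% of all genes called, led by the beta-catenin coactivator gene Bcl9l at 173 CPM against 13.3 CPM.

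**Figure D4:**
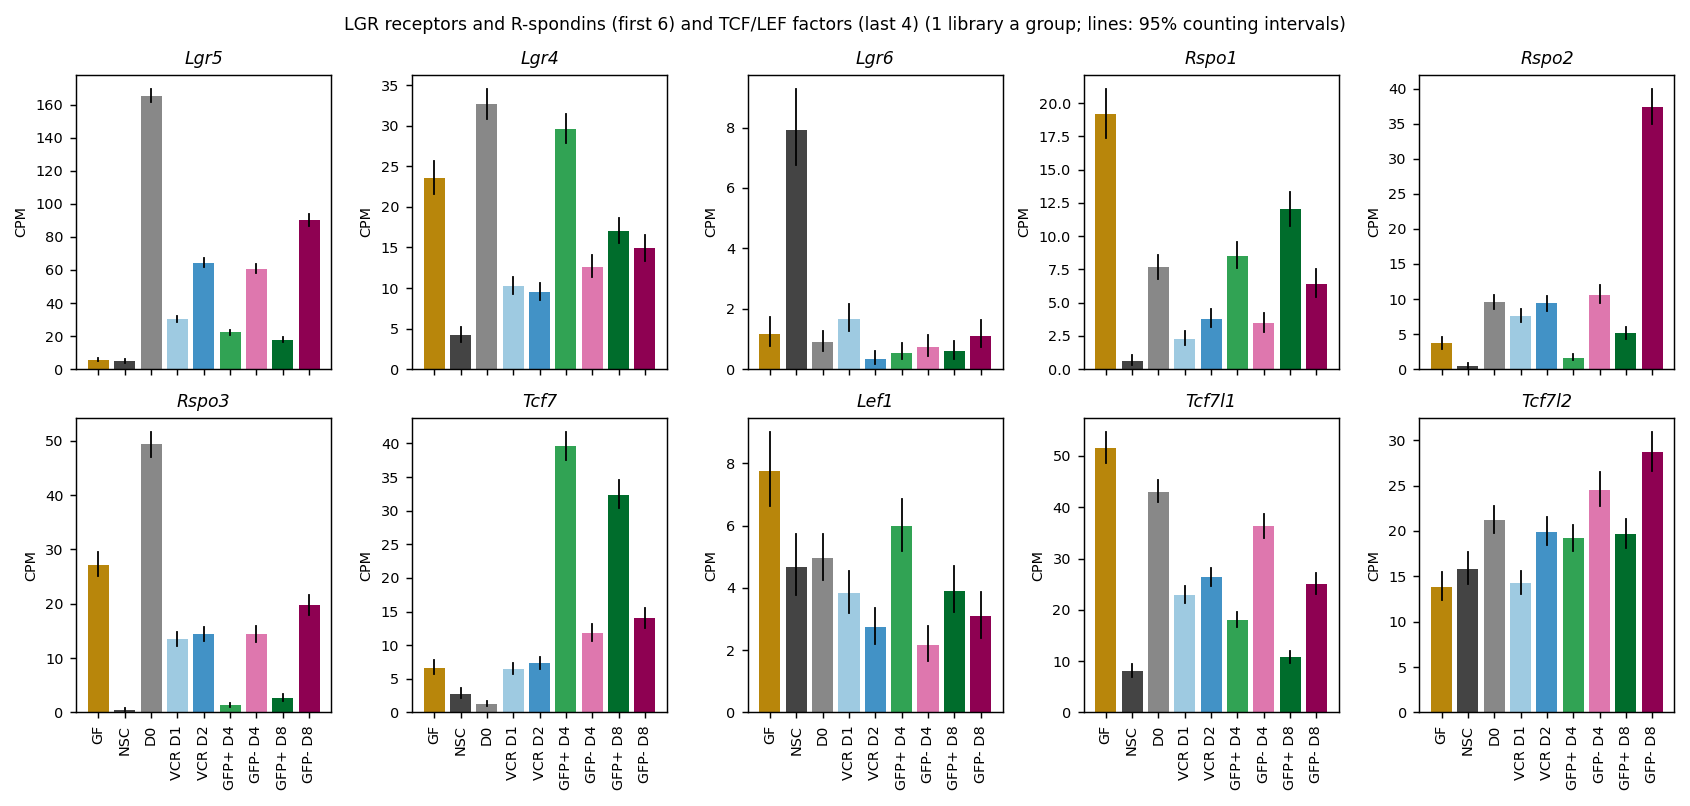
Levels in CPM, on linear axes from 0, of LGR receptors, R-spondins and TCF/LEF factors in the 9 libraries; each bar is 1 library and the line on it its 95% counting interval. Rspo2 is at 37.4 CPM in GFP-negative D8, and Tcf7 is at 39.6 CPM in GFP-positive D4, where Tcf7l1 is at 18.0 CPM.

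Other commonly used Wnt targets did not move as a block. At D1 1 of 11 measured rose and 2 fell, or 2 and 2 of 12 with quantile scaling, beside 12.5% of all genes called. Cd44, an adhesion receptor, was at 536 CPM in D1 against 173 CPM in D0. Wisp1, a secreted matrix protein gene, was at 116 against 737 CPM, and Dact1, whose product binds Dishevelled, at 3.57 against 15.3 CPM. In GFP-negative D8 4 of 13 rose and 1 fell, or 4 and 2 with median ratio and TMM scaling, beside 22.5% of all genes called. Tnfrsf19 was at 16.5 against 0.435 CPM, Apcdd1, a membrane-bound Wnt inhibitor, at 23.6 against 2.88 CPM, and Kremen1, a receptor for Dickkopf proteins, at 74.4 against 14.0 CPM. In GF 6 of 13 rose and 2 fell (4 and 2 with quantile scaling), beside 48.1% of all genes called, with Msx1, a homeobox factor, at 45.6 against 2.64 CPM and Wisp1 at 60.0 against 737 CPM.

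The genes whose profile was most like each member's were found by Pearson's r of log2(CPM + 1) over the 9 libraries, which share their depth and cell mixture, so r is a description. The nearest to Tcf7 were Numb (0.99), Mfsd14b (0.99) and Ahr (0.98), and to Nkd2 Zmpste24 (0.98), Ahr (0.98) and Zswim1 (0.98), so that Ahr was near both. For Nkd1 they were Egfr (0.96), Snrk (0.95) and Fam110a (0.95), for Axin2 Dio2 (0.90), Idh2 (0.90) and Dlg3 (0.88), and for Notum Kifc5b (0.96), Epas1 (0.95) and Draxin (0.95). For Sp5 they were H2-Q10 (0.99), Thsd4 (0.98) and Tmcc2 (0.98) and for Rnf43 Lmo3 (0.99), Lrrc7 (0.99) and Elovl2 (0.99); these members reached 5 CPM in 1 library each. For Lef1 they were Pgp (0.91), Traf3 (0.91) and Pxdn (0.90), for Znrf3 Plcb1 (0.86), Aldh4a1 (0.85) and Ets2 (0.84), and for Lgr5 Fam180a (0.97), Rbms3 (0.97) and Lamtor1 (0.95).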

How the data were processed

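RNA-seq of 9 samples was used, and 4 ATAC-seq samples were not analysed here. The authors deposited estimated counts per gene symbol; fractional values summing to 20104940 to 36751356 per library show that the table does not hold TPM. Per the submitters' processing notes, kallisto 0.43.1 and the builds GRCm38 and mm10 were used; the annotation is not given in the sources used here. From the deposited expected counts, CPM was computed on column totals, and differences are of log2(CPM + 1), which understates changes of low genes. Intervals are exact Poisson (levels) or conditional binomial (ratios), on counts rounded to whole numbers. With 1 library a group there are no p-values or SDs. Libraries were grouped by title. The members, the lists, the 15 comparisons and the rule for named genes (all 10 members; of the wider lists up to 3 called genes with the largest differences; the 3 genes most like each member among those with 20 CPM in any library) were chosen with earlier results of these data known. The LGR, R-spondin and TCF/LEF relatives drawn, and Rspo1, Rspo2, Rspo3 and Lgr4 by fraction, were chosen after their values were seen. One marker of the neural crest and Schwann cell list is not reported here and is left out of its sums. Other settings were pseudocounts of 0.1 and 5, a floor of 1 CPM or none, median ratio scaling over 8290 genes, TMM (edgeR 4.0.16), quantile normalization, and library totals that leave out mitochondrial genes, ribosomal protein genes and the 20 highest remaining genes. Calls and intervals were tried on simulated counts that varied by counting error alone, so variation between cultures was not covered. Python 3.11.15, scipy 1.17.1 and R 4.3.3 were used.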

Additional observations from a re-analysis of the deposited data

Results flagged for a closer look

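Nkd1, which lay below D0 in both GFP-positive libraries and above it in both GFP-negative ones, is listed for moving opposite ways in the fractions. Its difference from D0 on the log2(CPM + 1) scale was -0.255 in GFP-positive D4 and -0.613 in GFP-positive D8, against 0.453 in GFP-negative D4 and 1.68 in GFP-negative D8. The difference between the fractions was not tested, because each value is 1 library. With median ratio, TMM and quantile scaling Nkd1 was also called lower in GFP-positive D8 (-1.05, -1.10 and -1.18).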

How the results depend on the processing

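Of 57 calls of single Wnt feedback genes in the 15 comparisons, 47 held in all 8 other settings, and none turned round. With a pseudocount of 5 CPM, the number of all genes called moved to 759 in D1 and 847 in D2 against D0, 218 in D2 against D1, 1038 and 1627 in GFP-negative D4 and D8 against D0, 317 in GFP-negative D8 against D4, and 151 in GFP-positive D8 against D4, from 1321, 1348, 415, 1754, 2455, 556 and 308. It left 0 Wnt feedback genes called in D2 against D1 (as did quantile normalization) in place of 1, and 2 between the fractions at D8 in place of 4. With no filter, or a floor of 1 CPM, 5 were called in D1 and in GFP-positive D8 against D0 in place of 3 each, and 1 in GFP-positive D8 against D4 in place of 0. The highest library of Axin2 became GFP-negative D8, and that of Lef1 D0, with quantile normalization, and that of Nkd2 became GFP-positive D8 with median ratio scaling; the cause was not tested. Leaving out a library was not possible with 1 per group. No paired analysis was possible because each group is 1 library. Sp5, Rnf43 and Notum rest on 0 to 4 counts in D0, which limits their ratios.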
